A study of Mus musculus with 60 samples.

Results

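Glucose and monocarboxylate carriers of the kidney were followed here as 9 genes, chosen by name: the sodium-coupled carriers Slc5a1, Slc5a2, Slc5a8, Slc5a10 and Slc5a12, the facilitative hexose carriers Slc2a1, Slc2a2 and Slc2a5, and the monocarboxylate family carrier Slc16a9. The choice was made with earlier results of these data known. The carriers were 9 of 55335 gene rows in the count tables. All 9 were among the 15546 genes that reached 1 CPM (a count scaled to library size) in at least 1 library. Poly(A) RNA was sequenced from 60 male mice on a C57BL/6J background, 30 cKOt mice (Bmal1lox/lox/Pax8-rtTA/LC-1 Cre) and 30 control littermates (Bmal1lox/lox), killed at zeitgeber time (ZT) 0, 4, 8, 12, 16 or 20, with 5 mice in each of 12 groups. ZT0 was lights on and ZT12 lights off under 12 h of light and 12 h of darkness, with chow always available. All mice of both genotypes carried the floxed Bmal1 (Arntl) alleles and drank doxycycline (2 mg/ml, with 20 mg/ml sucrose) for 2 weeks from 8 weeks of age, and kidneys were taken 4 weeks later. Pax8-rtTA with LC-1 Cre drives recombination in the epithelium of the renal tubule. The labels call the tissue renal tubule, whereas the study's methods describe frozen pieces of whole kidney, and podocyte and endothelial markers were present in every library.

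Glucose, fructose and lactate are filtered at the glomerulus and taken back almost completely by the proximal tubule. At the apical membrane, SGLT carriers of the SLC5 family use the sodium gradient to pull sugars into the cell, and the related SMCT carriers do the same for lactate, pyruvate and other monocarboxylates. GLUT carriers of the SLC2 family then let sugars pass down their gradient, mostly across the basolateral membrane. BMAL1 is the clock activator that, with CLOCK, binds the E-box CACGTG in the promoters of many rhythmic genes.

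Promoter sequences (RefSeq, GRCm38.p6) covering 250 bases before and 50 bases after a transcription start were available for 7 of the 9 genes, in 8 windows; Slc5a2 and Slc5a12 were not matched. The windows were searched on both strands for the E-box CACGTG, the D-box TTANGTAA bound by PAR bZIP factors, and the ROR element TAGGTCA. Of all 32851 promoter windows, 7.15% held the E-box, 2.32% the D-box and 2.61% the ROR element. Among the 8 windows there was 1 match, an E-box 143 bases before the start of Slc5a1. The 250 bases before the start are shown for Slc5a1, since it held the match, and for Slc16a9, since it was the transporter whose rhythm differed between the genotypes. Capitals mark the E-box; no capitals means only that none of the 3 motifs is in that stretch.
Slc5a1, chr5:33103969-33104218, plus strand: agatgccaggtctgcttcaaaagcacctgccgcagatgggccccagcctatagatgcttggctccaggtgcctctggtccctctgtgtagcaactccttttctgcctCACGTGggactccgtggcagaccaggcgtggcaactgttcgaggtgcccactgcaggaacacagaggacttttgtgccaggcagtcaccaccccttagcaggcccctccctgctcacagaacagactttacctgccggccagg
Slc16a9, chr10:70245026-70245275, plus strand: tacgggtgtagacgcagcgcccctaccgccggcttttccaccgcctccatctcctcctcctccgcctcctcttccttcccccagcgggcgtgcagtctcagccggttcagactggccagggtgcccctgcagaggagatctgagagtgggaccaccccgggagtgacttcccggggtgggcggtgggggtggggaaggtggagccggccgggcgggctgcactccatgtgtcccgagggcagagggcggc

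Arntl, the targeted gene, gave the check of the genotypes. In control mice its mean fell from 48.4 ± 10.2 CPM (SD, n = 5) at ZT0 to 2.73 ± 0.825 CPM at ZT8, whereas in cKOt mice it stayed between 17.4 ± 2.01 CPM at ZT12 and 24.4 ± 1.57 CPM at ZT0. The groups did not overlap at 5 of 6 time points, with cKOt mice lower at ZT0 and ZT20 and higher at ZT4, ZT8 and ZT12. Counts cover the whole gene, so transcripts that lack the floxed part are counted too. Libraries held 17791420 to 20906706 counts on genes, and the lowest count of any of the 9 transporters in any library was 358, for Slc2a1. In the test of mean expression given below, 26.8% of all genes were called higher and 23.2% lower in cKOt mice. Of the marker lists, proximal tubule markers had 1 higher, 4 lower and 2 not passing of 7, and straight proximal tubule (S3) markers 1 higher, 2 lower and 1 not passing of 4. The summed level of the S3 list ran from 3336 to 5588 CPM in control mice and from 2201 to 4190 CPM in cKOt mice. Proximal tubule markers summed to 11389 to 15416 CPM in control mice against 10265 to 15783 CPM in cKOt mice. The S3 sum was carried by Acsm3 (mean 2524 CPM in control mice against 1589 CPM in cKOt mice) and Slc7a13 (1070 against 841 CPM), whereas Cyp7b1 was higher in cKOt mice (log2 fold change 0.48) and Slc22a7 did not pass (0.011). Endothelial markers had 4 lower of 4, fibroblast markers 3 lower of 3 and macrophage markers 2 lower of 3, with none higher, and no podocyte marker of 3 passed. Their log2 fold changes ran from -0.13 to -0.099 for endothelial, -0.37 to -0.12 for fibroblast and -0.27 to -0.013 for macrophage markers. In the thick ascending limb 2 markers were higher and 1 lower of 3, while the summed median was 4434 CPM in control mice against 3648 CPM in cKOt mice. Of the distal convoluted tubule markers 2 of 3 were higher and none lower, and of the collecting duct markers 3 were higher and 2 lower of 6. The part of these shifts in the results on the carriers was not tested. In bulk tissue, fewer cells of a type and less RNA per cell cannot be told apart.

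The 9 carriers differed widely in level. To set genes side by side, levels were taken per kilobase of all annotated exons merged, which need not be the length of the transcripts expressed. For Slc5a2 and Slc5a10 this length includes bases shared with genes on the opposite strand. Slc5a2 was highest in control mice at a mean of 121 CPM per kb. It encodes SGLT2, the main carrier of glucose reabsorption in the early proximal tubule. Slc5a12 (SMCT2, a low-affinity lactate carrier) followed at 97.6 CPM per kb and Slc5a8 (SMCT1, its high-affinity relative) at 90.3 CPM per kb. Slc16a9 (MCT9, a carrier of the monocarboxylate family linked to carnitine) was at 76.1 CPM per kb. Slc5a10 (SGLT5, a carrier of mannose and fructose) stood at 47.9 CPM per kb and Slc2a2 (GLUT2, the basolateral glucose exit of the early proximal tubule) at 38.7. Slc2a5 (GLUT5, a fructose carrier) at 18.4 CPM per kb, Slc5a1 (SGLT1, the high-affinity glucose carrier of the late proximal tubule) at 15.9 and Slc2a1 (GLUT1, a widely expressed glucose carrier) at 9.11 CPM per kb were the lowest.

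**Figure D1:**
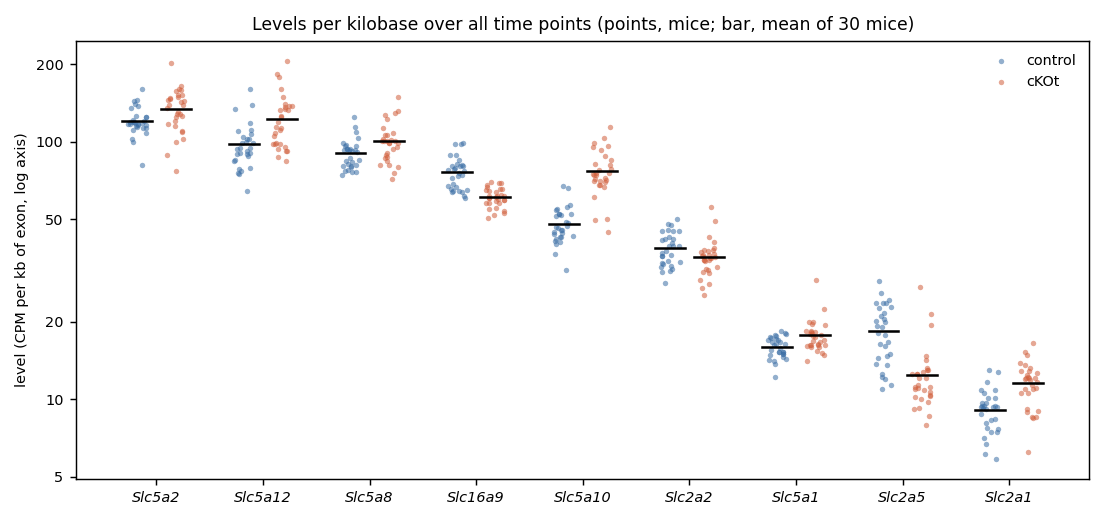
Level of each transporter per kilobase of exon (log axis) in single mice, with 30 control and 30 cKOt mice per gene and the mean as a bar. Slc5a2, Slc5a12 and Slc5a8 lie highest with overlapping ranges, Slc2a1 lowest, and Slc16a9 and Slc5a10 change places between the genotypes.

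Neighbours in this order were often not separated in single mice. Slc5a2 was above Slc5a12 in 25 of 30 control mice and 20 of 30 cKOt mice, and Slc5a12 was above Slc5a8 in 19 control and 26 cKOt mice. By contrast, Slc2a2 was above Slc5a1 in all 30 mice of each genotype.

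The order of some neighbours was not the same in cKOt mice. Slc16a9 exceeded Slc5a10 in 29 of 30 control mice but in 4 of 30 cKOt mice, and the median of their within-mouse ratio (CPM per kb) was 1.62 in control and 0.79 in cKOt mice. Slc2a5 exceeded Slc2a1 in 30 of 30 control mice, with a median ratio of 1.93, and in 17 of 30 cKOt mice, with a median ratio of 1.01. Slc5a1 exceeded Slc2a5 in 10 control mice and 27 cKOt mice. The ratio of Slc5a2 to Slc5a1 was close in the genotypes, with medians of 7.70 in control and 7.87 in cKOt mice and overlapping ranges of 4.98 to 11.4 and 4.41 to 10.9. The median ratio of Slc2a2 to Slc2a1 was 4.04 in control and 2.98 in cKOt mice. These ratios are descriptions and were not tested.

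The first question was whether the level of a transcript, averaged over the day, differed between cKOt and control mice. Control mice are given as Bmal1lox/lox without Pax8-rtTA and LC-1 Cre, so loss of BMAL1 and presence of these transgenes cannot be told apart. All 9 carriers passed the test of mean expression (edgeR quasi-likelihood test, adjusted p below 0.05 by Benjamini-Hochberg over all 15546 genes). The 5 SLC5 carriers and Slc2a1 were higher in cKOt mice and Slc2a2, Slc2a5 and Slc16a9 were lower. The background was broad: 26.8% of all genes were called higher and 23.2% lower. The carriers were chosen with earlier results of these data known, so their counts beside these shares are a description and no test. The median log2 fold change was 0.15 over the 9 carriers and 0.012 over all retained genes. The differences were small for most carriers, and a log2 fold change beyond 0.5 was reached by Slc5a10 and Slc2a5 alone among the 9.

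**Figure D2:**
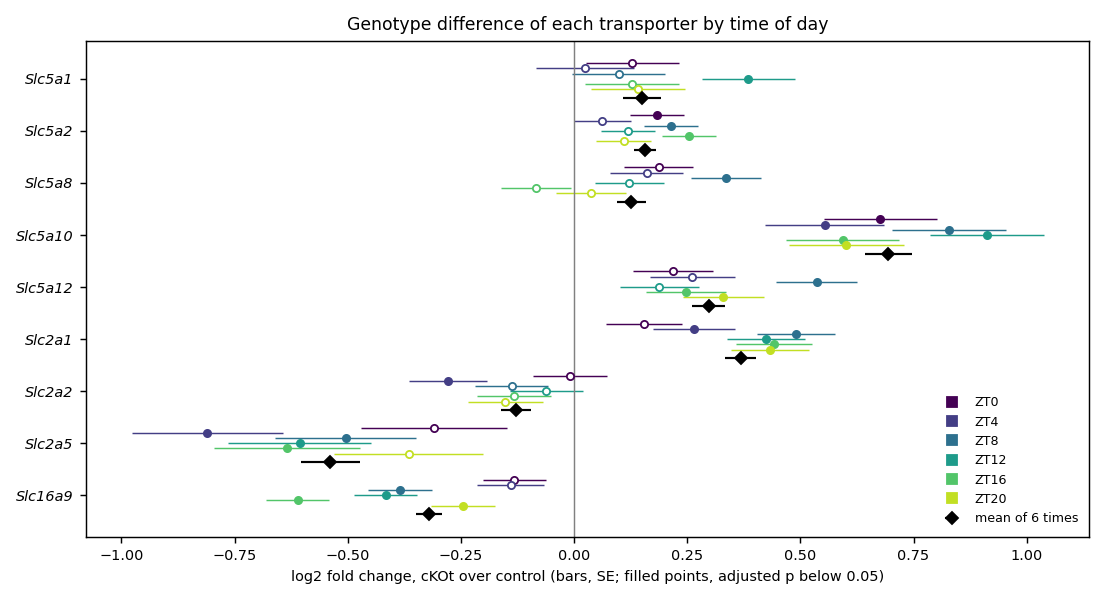
Log2 fold change of cKOt over control mice for each transporter at the 6 time points (coloured points, n = 5 against 5) and for the mean of the 6 (black diamonds), with standard errors; filled points passed the test. The SLC5 carriers and Slc2a1 lie right of 0 and Slc2a2, Slc2a5 and Slc16a9 left of it, with Slc5a8 at ZT16 as the point on the other side of 0 from its mean.

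Among the sodium-coupled sugar carriers, Slc5a10 had the largest difference. Its CPM ranged from 75.2 to 159 with a median of 110 in the 30 control mice and from 105 to 269 with a median of 177 in the 30 cKOt mice. At ZT8 the control mice had 115.9, 97.2, 107, 111 and 129 CPM and the cKOt mice 220, 235, 165, 245 and 178 CPM, so that every cKOt mouse was above every control mouse. The mean log2 fold change was 0.69 (SE 0.051, adjusted p = 3.46e-17), a fold of 1.62. Slc5a10 was called higher at all 6 time points, with log2 fold changes from 0.55 (SE 0.13) at ZT4 to 0.91 (SE 0.13) at ZT12, and the genotypes did not overlap at ZT0, ZT8 and ZT16. The ZT4 call was lost without the RUVs factors, which are covariates for unwanted variation (0.38, adjusted p = 0.0783), and with library batch in their place (0.35, adjusted p = 0.101). At ZT12 the cKOt mice were widely spread, at 105.3, 228, 269, 208 and 169 CPM, and replicate 1 fell among the control mice, which had 100.7 to 110 CPM. The difference had the same sign in all 6 library batches, from 0.51 to 0.83 on the log2 scale.

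Slc5a10 shares 393 exon bases with Fam83g, which lies on the opposite strand, and the strand setting of the counting is not given in the sources used here. Fam83g held 99 to 311 counts per library and was lower in cKOt mice (log2 fold change -0.12, adjusted p = 0.0239). Slc5a2 shares 597 exon bases with BC017158 on the opposite strand, which held 329 to 748 counts per library and did not pass the test (log2 fold change -0.028, adjusted p = 0.414). Slc16a9 and Slc2a1 share exon bases with opposite-strand loci of at most 5 counts in any library.

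Slc5a2 and Slc5a1, the carriers that do most of the glucose reabsorption, rose by similar small amounts. Slc5a2 ranged from 236 to 463 CPM (median 342) in control mice and from 224 to 584 CPM (median 396) in cKOt mice. Its ranges overlapped at every time point. Its mean log2 fold change was 0.16 (SE 0.024, adjusted p = 2.18e-07), and over 15 alternative analyses the adjusted p of this mean test reached 0.0366. Single time points passed at ZT0, ZT8 and ZT16, with values of 0.18, 0.21 and 0.25, and none of these 3 passed without the RUVs factors. Of 15 alternative analyses, the ZT0 call held in 7, the ZT8 call in 11 and the ZT16 call in 13. At ZT4 the raw means were in the other order, 371 ± 29.4 CPM in control mice against 341 ± 67.1 CPM in cKOt mice, whereas the fit with these covariates gave a log2 fold change of 0.063 (SE 0.062, adjusted p = 0.583).

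Slc5a1 ranged from 49.9 to 75.6 CPM (median 65.7) in control mice and from 58.0 to 119 CPM (median 70.7) in cKOt mice, and its mean log2 fold change was 0.15 (SE 0.042, adjusted p = 0.00224). It passed at ZT12 alone, with a log2 fold change of 0.38 (SE 0.10, adjusted p = 0.00383). There the control mice had 56.2, 61.0, 58.8, 75.6 and 61.6 CPM and the cKOt mice 66.9, 80.3, 119, 72.5 and 74.0 CPM. The groups overlapped, and replicate 3 of the cKOt mice stood far above the other 4. Without replicate 3 of every group the ZT12 call was lost, while the mean difference still passed. The summed S3 markers, in the segment where Slc5a1 is known to be expressed, had a median of 4072 CPM in control mice against 2925 CPM in cKOt mice. Of these 4 markers, Acsm3 and Slc7a13 were lower, Cyp7b1 was higher (log2 fold change 0.48) and Slc22a7 did not pass (0.011). The part of these markers in the Slc5a1 result was not tested.

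The sodium-coupled monocarboxylate carriers were both higher in cKOt mice. Slc5a12 ranged from 261 to 649 CPM (median 382) in control mice and from 341 to 839 CPM (median 475) in cKOt mice, with a mean log2 fold change of 0.30 (SE 0.036, adjusted p = 5.59e-10). At ZT8 the control mice had 364, 422, 452, 403 and 405 CPM and the cKOt mice 544, 652, 557, 555 and 539 CPM. No cKOt mouse at ZT8 overlapped a control mouse, and the log2 fold change was 0.54 (SE 0.089, adjusted p = 4.79e-06). Slc5a12 also passed at ZT16 (0.25) and ZT20 (0.33), and the genotypes were apart at ZT20. Of 15 alternative analyses, the ZT16 call was lost in 9 (adjusted p = 0.268 without the RUVs factors) and the ZT20 call in 3 (adjusted p = 0.125 without the RUVs factors). At ZT4 the means were 414 ± 48.2 CPM in control mice against 580 ± 152 CPM in cKOt mice, a gap in CPM as wide as that at ZT8, and the groups overlapped. The fit gave 0.26 (SE 0.093) there with an adjusted p of 0.0534, and 5 of the 15 alternatives called it. Without the RUVs factors the ZT4 difference was 0.48 (adjusted p = 0.0037) and with library batch in their place 0.50 (adjusted p = 0.000927).

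Slc5a8 differed less, with a mean log2 fold change of 0.13 (SE 0.031, adjusted p = 0.000659). Its CPM ran from 396 to 663 in control mice (median 488) and from 383 to 793 in cKOt mice (median 533). It passed at ZT8 alone, at 0.34 (SE 0.077, adjusted p = 0.000819), where the control mice had 498, 405.4, 453, 433 and 583 CPM and the cKOt mice 564, 793, 542, 501 and 529 CPM. These groups overlapped, with cKOt replicate 2 highest, and the ZT8 call was lost without replicate 2 of every group. At ZT4, the one time point where the ranges of Slc5a8 were apart, the means were 460 ± 46.9 CPM in control mice against 578 ± 63.6 CPM in cKOt mice. The fit gave 0.16 (SE 0.081, adjusted p = 0.206) at ZT4, but 0.33 with a call both without the RUVs factors (adjusted p = 0.021) and with library batch in their place (adjusted p = 0.0192). At ZT16 and ZT20 the genotypes were close, at 465 ± 55.0 against 434 ± 40.0 CPM and 458 ± 46.0 against 456 ± 41.1 CPM.

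Of the facilitative carriers, Slc2a1 was higher in cKOt mice and both others were lower. Slc2a1 ranged from 20.6 to 45.6 CPM (median 32.7) in control mice and from 21.8 to 58.0 CPM (median 41.9) in cKOt mice, with a mean log2 fold change of 0.37 (SE 0.035, adjusted p = 2.78e-13). At ZT8 the control mice had 27.2, 26.2, 24.7, 26.2 and 29.5 CPM and the cKOt mice 42.8, 29.9, 36.9, 52.0 and 42.4 CPM, with no overlap (log2 fold change 0.49, SE 0.086, adjusted p = 1.51e-05). Slc2a1 passed at every time point but ZT0. Its ZT12 call was lost without the RUVs factors (0.34, adjusted p = 0.138) and with library batch in their place (0.36, adjusted p = 0.0962), and its ZT20 call without the RUVs factors (0.45, adjusted p = 0.051). At ZT4 the raw means were equal to within their spread, 33.4 ± 4.05 CPM in control mice against 33.5 ± 8.91 CPM in cKOt mice, and the call of 0.27 (SE 0.090, adjusted p = 0.0402) rested on the RUVs covariates; with library batch as covariate instead, the difference was -0.018.

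Slc2a2 and Slc2a5 were lower in cKOt mice, to different extents. Slc2a2 ranged from 163 to 288 CPM (median 222) in control mice and from 146 to 321 CPM (median 204) in cKOt mice, with a mean log2 fold change of -0.13 (SE 0.033, adjusted p = 0.00102). It passed at ZT4 alone (-0.28, SE 0.085, adjusted p = 0.0208), and its ranges overlapped at every time point. The ZT4 call was lost in 5 of 15 alternatives, at -0.14 without the RUVs factors (adjusted p = 0.314) and -0.16 with library batch in their place (adjusted p = 0.229). In cKOt mice at ZT8 replicate 2 had 321 CPM while the other 4 mice lay between 208 and 219 CPM.

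Slc2a5 had the largest decrease, with a mean log2 fold change of -0.54 (SE 0.065, adjusted p = 5.77e-10) or a fold of 0.689. Its CPM ran from 37.3 to 97.6 (median 63.2) in control mice and from 27.0 to 93.0 (median 38.2) in cKOt mice. At ZT4 the control mice had 73.6, 76.6, 87.7, 69.5 and 65.6 CPM and the cKOt mice 41.0, 43.2, 37.9, 42.5 and 37.4 CPM. All cKOt mice were below all control mice there, as they were at ZT16 and ZT20, and the ZT4 log2 fold change was -0.81 (SE 0.17, adjusted p = 0.000339). At ZT8 the cKOt mice were spread from 37.4 to 93.0 CPM and overlapped the control range of 65.1 to 97.6 CPM. Slc2a5 passed at ZT4, ZT8, ZT12 and ZT16, and not at ZT0 or ZT20, although the 5 and 5 mice did not overlap at ZT20 (37.3 to 50.8 CPM in control mice against 31.1 to 36.3 CPM in cKOt mice). The ZT8 call was lost without replicate 1, 3, 4 or 5 of every group (adjusted p from 0.0524 to 0.159), and ZT20 was called without replicate 2 (adjusted p = 0.0167) and without the 4 mice that stood apart in 2 or more carriers (adjusted p = 0.0403). Its difference was negative in all 6 library batches, from -0.70 to -0.33.

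The next question was how the differences were placed in the day. Of the 54 pairs of a carrier and a time point, 28 passed the test. By time point, 2 of 9 carriers were called at ZT0 (12.1% of all genes), 4 at ZT4 (12.5%), 7 at ZT8 (19.9%), 5 at ZT12 (21.0%), 6 at ZT16 (19.8%) and 4 at ZT20 (13.8%). Slc5a2 and Slc5a10 were the carriers called at ZT0. At ZT8 Slc5a1 and Slc2a2 were the carriers not called. The ranges of 5 cKOt and 5 control mice were apart in 13 of the 54 pairs, and in 8.92% of the pairs of all genes and time points. Given how the carriers were chosen, these comparisons with all genes are a description. Of the 28 calls, 14 held in all 15 alternative analyses; these were calls of Slc5a10, Slc5a12, Slc2a1, Slc2a5 and Slc16a9.

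**Figure D3:**
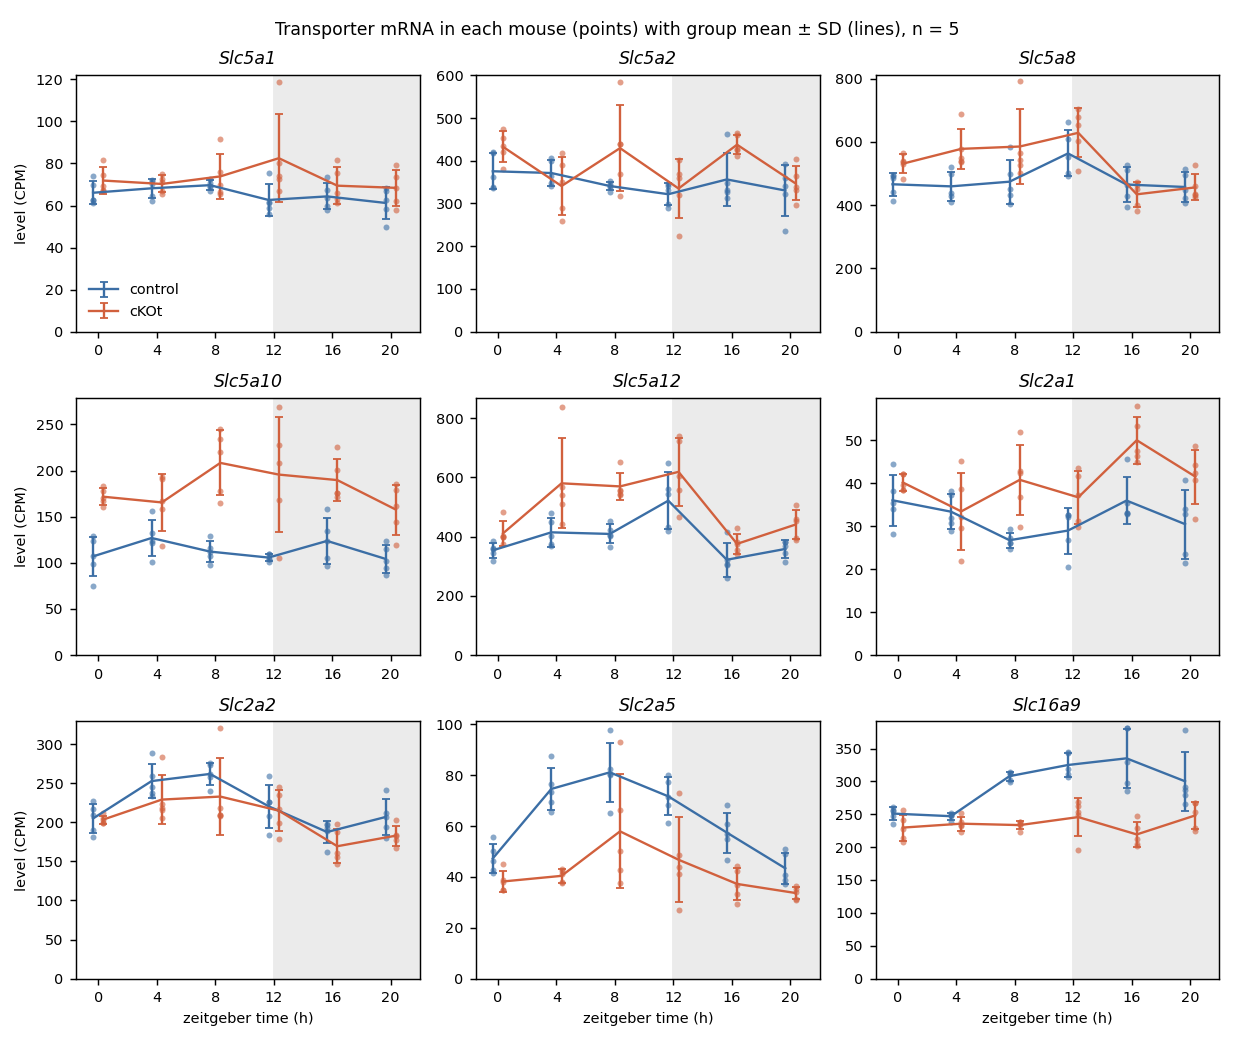
CPM of the 9 transporters in single mice against zeitgeber time (points), with the mean and SD of 5 mice per group (lines and bars); the shaded area is the dark phase. Slc16a9 is nearly flat in cKOt mice and rises to 335 CPM at ZT16 in control mice, while Slc5a12, Slc2a2 and Slc2a5 vary with time in both genotypes.

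Among the 9, Slc16a9 was the carrier whose genotype difference varied over the day. Its interaction of genotype and time passed (adjusted p = 0.00397), as it did for 3.08% of all genes, and for the other 8 carriers the adjusted p of the interaction lay between 0.144 and 0.682. At ZT4 the control mice had 249, 252, 247, 238 and 249.6 CPM and the cKOt mice 232, 252, 234, 223 and 238 CPM. These groups overlapped (log2 fold change -0.14, SE 0.074, adjusted p = 0.234), and those at ZT0 did too, at 251 ± 10.3 and 229.7 ± 19.8 CPM (adjusted p = 0.232).

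From ZT8 on, Slc16a9 differed between the genotypes. At ZT8 the control mice had 313, 312, 302, 314 and 299 CPM and the cKOt mice 233, 238, 223, 235 and 238 CPM. At ZT12 the control mice had 345, 307, 318, 343 and 311 CPM and the cKOt mice 254, 269, 195, 263 and 248 CPM. At ZT16 the control mice had 286, 381, 382, 329.5 and 297 CPM and the cKOt mice 213, 247, 201, 229.8 and 205.3 CPM. At these 3 times every cKOt mouse was below every control mouse. The log2 fold change was -0.38 (SE 0.070) at ZT8, -0.42 (SE 0.070) at ZT12 and -0.61 (SE 0.070, adjusted p = 9.26e-10) at ZT16, and it was smaller again at ZT20 (-0.25, SE 0.071, adjusted p = 0.0118). At ZT20 control replicate 1 had 378 CPM and the other 4 control mice had 266 to 292 CPM. The ZT20 call was lost without replicate 1 (-0.17, adjusted p = 0.127), replicate 4 (adjusted p = 0.0826) or replicate 5 (adjusted p = 0.0956) of every group. Averaged over the day, the log2 fold change of Slc16a9 was -0.32 (SE 0.029, adjusted p = 3.10e-14), and it was negative in all 6 library batches. Without replicate 3 of every group the interaction had an adjusted p of 0.0842.

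Time of day by itself was tested within each genotype with no shape assumed. In control mice 6 of 9 carriers passed (30.6% of all genes) and in cKOt mice 6 of 9 (26.6% of all genes). Slc5a8, Slc5a12, Slc2a1, Slc2a2 and Slc2a5 passed in both genotypes, Slc16a9 in control mice (adjusted p = 1.01e-06) and not in cKOt mice (adjusted p = 0.539), and Slc5a2 in cKOt mice (adjusted p = 0.0228) and not in control mice (adjusted p = 0.298). Slc5a1 and Slc5a10 passed in neither. The interaction, which asks whether the genotype difference varies over the day, was tested for all 9 carriers and passed for Slc16a9 alone. For Slc5a2 its adjusted p was 0.631 (edgeR). The calls of Slc5a8 and Slc2a1 in control mice had adjusted p values of 0.107 and 0.110 without the RUVs factors, and they were lost without 1 replicate number (replicate 1, 3 or 4 for Slc5a8, replicate 4 for Slc2a1). In cKOt mice the call of Slc2a1 was lost without replicate 2, 3, 4 or 5 (adjusted p from 0.0640 to 0.123) and that of Slc5a2 without replicate 3 or 4 (adjusted p = 0.131 and 0.100).

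A 24 h cosine was then fitted and each gene was assigned to 1 of 5 models by its Bayesian information criterion (BIC) weight, with at least 0.65 needed. Model 1 has no rhythm, model 2 a rhythm in control mice only, model 3 one in cKOt mice only, model 4 the same rhythm in both and model 5 a rhythm in both that differs. Slc5a12, Slc2a2 and Slc2a5 were assigned to model 4, which took 25.2% of all genes. Slc16a9 was assigned to model 2 (6.25% of all genes), and Slc5a1 and Slc5a2 to model 1 (34.0% of all genes). Without replicate 1 of every group, or with a weight of 0.8 needed, Slc5a1 and Slc5a2 were not assigned. Slc5a1 was also not assigned without the 4 mice that stood apart in 2 or more carriers. Slc2a5 moved to model 5 without replicate 2 of every group and without these 4 mice. Slc5a8, Slc5a10 and Slc2a1 reached no weight of 0.65 and stayed unassigned.

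**Figure D4:**
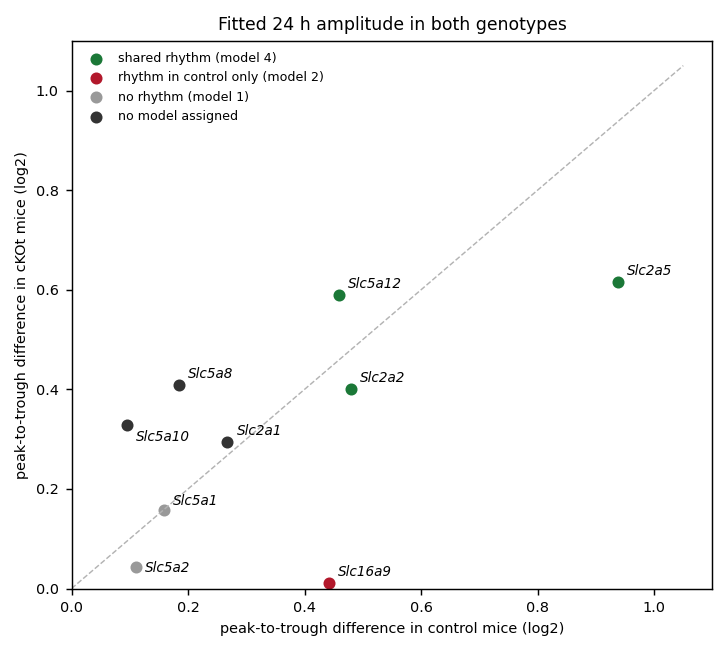
Fitted peak-to-trough difference (log2 of corrected CPM) in cKOt mice against that in control mice for each transporter, coloured by assigned rhythm model, with the dashed line marking equal amplitudes. Slc16a9 lies near 0 in cKOt mice, and Slc5a12, Slc2a2 and Slc2a5 are well above 0 on both axes.

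The 3 carriers assigned to a shared rhythm peaked in the light phase. Slc2a5 had the largest amplitude, with a fitted peak-to-trough difference of 0.94 (log2) in control mice, 0.61 in cKOt mice and a shared peak at ZT8.5. Its highest group mean was at ZT8 in both genotypes, 81.1 ± 11.5 CPM in control mice against 57.9 ± 22.4 CPM in cKOt mice, and its lowest at ZT20, 43.4 ± 6.16 and 33.6 ± 2.32 CPM. The group means thus spanned 1.87-fold in control and 1.72-fold in cKOt mice, and the interaction did not pass (adjusted p = 0.674). Slc2a2 had an amplitude of 0.48 in control and 0.40 in cKOt mice with a shared peak at ZT6.1. Its group means were highest at ZT8 (262 ± 14.2 and 233 ± 49.1 CPM) and lowest at ZT16 (188 ± 14.5 and 169.5 ± 21.8 CPM).

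Slc5a12 had amplitudes of 0.46 in control and 0.59 in cKOt mice with a shared fitted peak at ZT8.3. Its group means were highest at ZT12, 521 ± 96.0 CPM in control mice against 619 ± 116 CPM in cKOt mice, and lowest at ZT16, 322 ± 56.8 and 376 ± 33.2 CPM, so that the level fell by most of its daily range within 4 h of lights off. The fitted cosine does not follow such a step. Slc5a8 was also highest at ZT12 in both genotypes, with 564 ± 72.6 CPM at ZT12 and 465 ± 55.0 CPM at ZT16 in control mice, and 629 ± 77.5 CPM at ZT12 and 434 ± 40.0 CPM at ZT16 in cKOt mice. In control mice its lowest mean was at ZT20 (458 ± 46.0 CPM), within the spread of those at ZT4 and ZT16. Across the 12 group means of log2 CPM, the Pearson r of Slc5a8 and Slc5a12 was 0.88, the highest of the 36 pairs among the 9 carriers. That of Slc2a2 and Slc2a5 was 0.73 and that of Slc2a1 and Slc2a2 was -0.71. The 12 means share libraries between genes and carry both the genotype and the time differences.

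For Slc16a9 the fitted peak-to-trough difference was 0.44 in control mice (fitted peak, ZT13.7) and 0.012 in cKOt mice. The BIC weight of model 2 was 0.983. Its group means ran from 247 ± 5.55 CPM at ZT4 to 335 ± 45.1 CPM at ZT16 in control mice, a span of 1.36-fold, and from 219 ± 19.0 CPM at ZT16 to 248 ± 20.6 CPM at ZT20 in cKOt mice, a span of 1.13-fold. Slc16a9 remained in model 2 in every alternative of the rhythm analysis that was run.

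The genes most like each carrier over the 12 group means were taken from 13772 genes with a mean of at least 1 CPM, as the 2 with the highest Pearson r, a description of group means that share libraries. For Slc16a9 these were Mpp4 (r = 0.966, mean 2.36 CPM) and Lin7a (r = 0.959, mean 2.53 CPM). Both were assigned to model 2, but they were picked for likeness to Slc16a9 over the same groups, so this is no separate result. For Slc5a10 the 2 genes were Mccc2, a subunit of methylcrotonyl-CoA carboxylase (r = 0.977), and Agt, the angiotensinogen gene (r = 0.975). For Slc5a12 they were Ddb2 (r = 0.967) and Bhlhb9 (r = 0.966), and for Slc5a8 Miga1 (r = 0.965) and Nsd3 (r = 0.954). For Slc5a2 the first of them was Ripor1 (r = 0.966), and for Slc5a1 they were Ccdc162 (r = 0.919) and Pklr, a pyruvate kinase (r = 0.897). For Slc2a5 they were Tcea3 (r = 0.962) and the magnesium transporter Slc41a1 (r = 0.961), for Slc2a2 Tm7sf3 (r = 0.926) and Bco2 (r = 0.925), and for Slc2a1 the first of them was Mprip (r = 0.958).

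Beside the 9 carriers, the other genes of their families and pathways were counted. Of the other SLC5 carriers, 4 of 8 were retained, and 2 were higher, 1 lower and 1 not passing. Slc5a9 (SGLT4, a mannose carrier) was higher by 0.54 (SE 0.035), at 47.0 ± 5.63 CPM in control mice against 68.5 ± 6.35 CPM in cKOt mice (n = 30 each). Slc5a11 (SMIT2, an inositol carrier) was higher by 0.49 (SE 0.040). Slc5a6, a carrier of biotin and pantothenate, was lower by a log2 fold change of -0.53 (SE 0.038). It was also assigned to model 2, and its interaction passed (edgeR, adjusted p = 0.00166). Slc5a3 (SMIT1), the most abundant of the other SLC5 carriers per kilobase, had a value of 0.025 (SE 0.056).

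**Figure D5:**
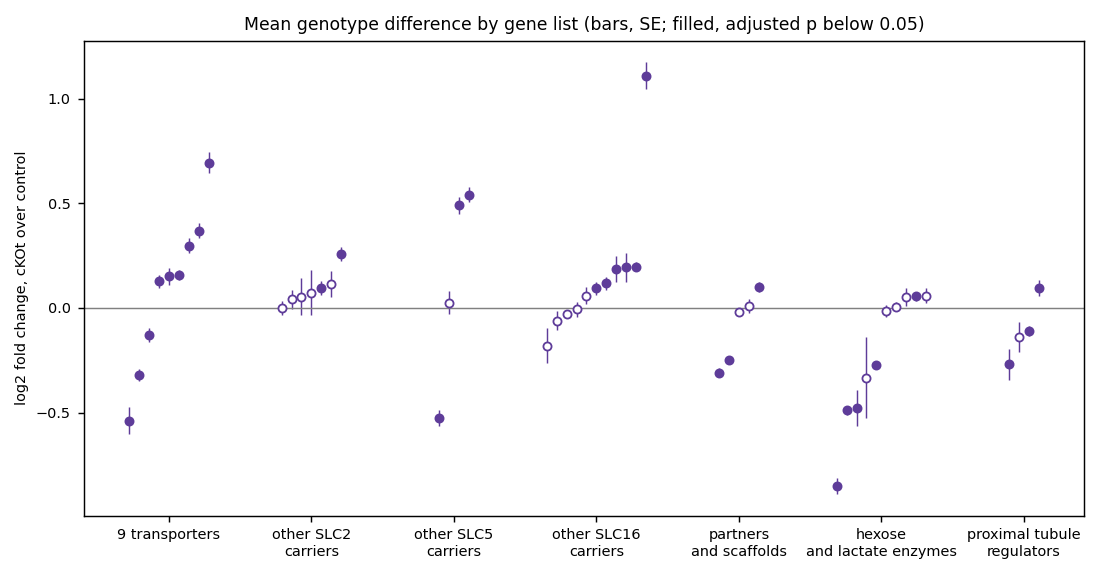
Mean log2 fold change of cKOt over control mice with its standard error for every retained gene of the 9 transporters and 6 related lists; filled points passed the test. Slc16a1 stands highest at 1.11 and Ldhd lowest at -0.85.

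Of the other SLC2 carriers, 7 of 9 were retained, 2 were higher, none was lower and 5 did not pass. Slc2a12 (GLUT12) was higher by 0.26 (SE 0.035) and Slc2a9, a urate carrier, by 0.095 (SE 0.036), whereas Slc2a4 (GLUT4), the highest per kilobase, had a value of -3.06e-05 (SE 0.033). Of the other SLC16 carriers, 11 of 13 were retained, 6 were higher, none was lower and 5 did not pass. Slc16a1 (MCT1, a proton-coupled lactate carrier) was higher by 1.11 (SE 0.064) averaged over the day. Its CPM ran from 26.0 to 137 in control mice and from 100.4 to 193 in cKOt mice. Like Slc16a9 it was assigned to model 2, and its genotype difference varied over the day (edgeR interaction, adjusted p = 2.90e-12). The interaction passed for 4 of these 11 SLC16 carriers and for 3.08% of all genes. Slc16a10, an aromatic amino acid carrier, was higher by 0.20 (SE 0.024), Slc16a11 by 0.19 (SE 0.070) and Slc16a6 by 0.19 (SE 0.060).

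Partners and scaffolds of the carriers moved in both directions. Of 6 genes 5 were retained, and 1 was higher, 2 lower and 2 not passing. Pdzk1, a scaffold of the brush border, was lower by a log2 fold change of -0.31 (SE 0.021) and Slc9a3r1 (NHERF1) by -0.25 (SE 0.019), while Pdzk1ip1 (MAP17), a partner that activates SGLT2, was higher by 0.10 (SE 0.026). Of 10 enzymes of hexose and lactate metabolism, 1 was higher, 4 lower and 5 not passing. Ldhd, the D-lactate dehydrogenase, was at 1867 ± 209 CPM in control mice against 1031 ± 148 CPM in cKOt mice, which gave a log2 fold change of -0.85 (SE 0.039). Sord, which makes fructose from sorbitol, was at -0.49 (SE 0.021), Akr1b3, the aldose reductase, at -0.48 (SE 0.088) and Ldhb at -0.28 (SE 0.018). Of 4 proximal tubule regulators 1 was higher, 2 were lower and 1 did not pass, with Hnf4a, the most abundant of them per kilobase, at -0.11 (SE 0.024).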

How the data were processed

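The authors deposited raw counts of reads per gene for each library (single reads, stranded TruSeq mRNA kit). The submitters' processing notes name bcl2fastq, cutadapt 1.8, STAR 2.5.3a, HTSeq 0.9.1 and GRCm38; the annotation release and strand setting are not given in the sources used here. The study kept 5 of 6 mice per group by RNA quality and distance from the group.

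Gene rows were named with GENCODE M21. Genes reaching 1 CPM in any library were tested with edgeR 4.0.16 (R 4.3.3; TMM, quasi-likelihood F test), with a coefficient per group and 2 RUVs factors, and p was adjusted by Benjamini-Hochberg over all retained genes. Rhythm used RUVs-corrected log2 CPM (prior count 2). The tests were checked on simulated counts with a fixed spread and no batch or other unwanted variation. That check does not cover how the RUVs factors remove such variation. limma 3.58.1, DESeq2 1.42.0 and other alternatives were run. CPM per mouse and per kilobase of exon are uncorrected. p-values measure the spread between mice of a group that was left after the 2 RUVs factors were fitted. For Slc5a2 at ZT0 the SE was 0.059 with these factors and 0.127 without them. No pair of libraries of a group agreed within counting noise (lowest ratio of squared difference to Poisson noise 5.45). The transporters and gene lists were chosen with earlier results of these data known. All 9 transporters are named, the 2 genes most like each, up to 4 called genes of each related list with the largest difference, and its most abundant gene per kilobase. A few genes that this rule names are not reported here.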

Additional observations from a re-analysis of the deposited data

Results flagged for a closer look

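In groups of 5 mice, 13 single values of the 9 carriers lay apart from the other 4 mice by more than 0.71 of the group's range (Dixon's ratio), in 108 groups tested. Chance gives about 1 in 20 groups if groups are independent. These 108 were not, as they are 9 carriers in the same 12 groups of mice. A mouse can thus count more than once, and 4 mice stood apart in 2 or more carriers. In cKOt mice at ZT8, replicate 2 was above the others for Slc5a8 (793 CPM, others 501 to 564), Slc5a12 (652 CPM, others 539 to 557) and Slc2a2 (321 CPM, others 208 to 219). In control mice at ZT16, replicate 1 was above the others for Slc5a2 (463 CPM, others 313 to 347) and Slc2a1 (45.6 CPM, others 32.8 to 35.4) and below them for Slc2a2 (163 CPM, others 188 to 199). In cKOt mice at ZT12, replicate 3 was above the others for Slc5a1 (119 CPM, others 66.9 to 80.3) and below them for Slc16a9 (195 CPM, others 248 to 269).

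In cKOt mice at ZT4, replicate 5 was above the others for Slc5a8 (688 CPM, others 537 to 579) and Slc2a2 (283 CPM, others 206 to 223). A single value stood apart for Slc5a1 in control mice at ZT12 (replicate 4, 75.6 CPM, others 56.2 to 61.6), for Slc5a12 in cKOt mice at ZT0 (replicate 5, 484 CPM, others 375 to 402) and for Slc16a9 in control mice at ZT20 (replicate 1, 378 CPM, others 266 to 292). Of these mice, cKOt ZT4 replicate 5 had the highest share of reads on no gene (10.6%) and the lowest share of ambiguous reads (0.953%) of the 60 libraries, control ZT16 replicate 1 had the lowest share on no gene (7.17%), and cKOt ZT12 replicate 3 the lowest among cKOt mice (7.80%). The part of these shares in the values above was not tested. The genotype difference of Slc16a9 differed between time points (edgeR interaction, adjusted p = 0.00397), from a log2 fold change of -0.13 (SE 0.070) at ZT0 to -0.61 (SE 0.070) at ZT16.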

How the results depend on the processing

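Over 15 alternatives (DESeq2 size factors, DESeq2, limma-trend, no filter, filterByExpr, no RUVs factors, library batch in place of them, a replicate block, without the library marked for removal by the study, without each replicate in turn, and, chosen after seeing the data, without the 4 mice that stood apart in 2 or more carriers) all 9 carriers passed the test of mean expression in the same direction. The margin differed between carriers. The highest adjusted p of the mean test over the alternatives was 0.0366 for Slc5a2, 0.0276 for Slc5a1, 0.0201 for Slc2a2 and 0.0192 for Slc5a8. For each of the other carriers it was 1.17e-05 or lower. Under the replicate block 9 also passed. Replicate numbers did not pair the mice (mean r of deviations 0.0043 over 330 pairs with the same number). The block changed 1 call of a carrier at a time point, Slc2a1 at ZT4. Leaving out a replicate, 0 to 2 carriers had a called interaction: Slc16a9 was lost without replicate 3 (adjusted p = 0.0842) and Slc5a8 was added without replicate 5 (adjusted p = 0.00993). The cause was not tested. At a BIC weight of 0.5, 7 carriers had a rhythm in at least 1 genotype, against 4 at 0.65, because Slc5a8, Slc5a10 and Slc2a1 were then assigned. With library batch as covariate, Slc2a1 at ZT4 was -0.018. All-gene interaction calls fell from 479 to 263 without RUVs factors and 312 with batch.

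Within library batches, time-matched differences had the pooled sign in 48 of 54 cases. The 6 of opposite sign were Slc5a1 (-0.024), Slc5a8 (-0.030) and Slc5a12 (-0.17) in batch 6, which had 2 time points with both genotypes, Slc5a2 (-0.097) in batch 1, and Slc2a1 (-0.073) and Slc2a2 (0.14) in batch 5. Of the 28 calls at single time points, 14 were lost under at least 1 alternative, and 6 pairs not called were called under at least 1. Without replicate 2, and without the 4 mice, Slc2a5 was assigned to model 5.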
